A study of Homo sapiens with 6 samples.

Results

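The lysosome is the acidic organelle in which proteins, glycans and lipids are broken down, and 42 genes of that system were examined here in A549 cells after knockdown of BAP18. They were chosen by name, as the rows of the deposited count table that carry the symbols of the transcription factors TFEB, TFE3 and MITF, of lysosomal membrane proteins, of cathepsins, glycan hydrolases and lipid hydrolases of the lumen, of subunits of the proton pump V-ATPase, and of the autophagy receptor SQSTM1. All 42 were found among the 35474 genes of the table. A549 is a human lung adenocarcinoma line, and BAP18, listed as C17orf49, is a subunit of chromatin complexes that reads a histone mark of active promoters. The groups were 3 cultures given siRNA against BAP18 (siBAP18) and 3 given an untargeted siRNA (siCtrl), all collected 48 h after transfection and labelled as biological replicates. Every culture is the same unmodified line, and the study's text does not say which of its BAP18 siRNAs was used, so that a change due to loss of BAP18 and a change due to the siRNA itself cannot be told apart.

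In the cell, V-ATPase uses ATP to pump protons into the lysosome. Its V1 sector, on the cytosolic face, holds the ATPase and the rotating stalk, and its V0 sector, in the membrane, carries the protons. The enzymes of the lumen need the acid pH, and many reach the lysosome with a mannose 6-phosphate tag. TFEB, TFE3 and MITF are related basic helix-loop-helix factors of the MiT/TFE family that bind E-box-like elements in promoters of lysosomal genes, and kinase signaling by mTORC1 at the lysosomal surface keeps TFEB and TFE3 in the cytosol. RNA levels do not report where these factors are.

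The libraries held between 46035635 and 53657450 counts in siCtrl and between 42094524 and 56548620 in siBAP18. C17orf49 fell from 15.1 ± 1.09 to 2.41 ± 0.235 CPM (SD, n = 3), a log2 fold change of −2.65. CPM express a count relative to the library total after scaling by edgeR's TMM method. Epithelial keratin genes dominated the marker genes, with KRT8 between 1384 and 2003 RPKM, a value that is scaled by gene length and library total, whereas the 5 markers of macrophages, fibroblasts and endothelium that had enough counts to be tested together reached 1.87 to 2.23 RPKM in siCtrl and 1.66 to 1.69 RPKM in siBAP18. Of the 6 epithelial markers, KRT7 rose (log2 fold change 0.43), CDH1 (−1.32), EPCAM (−0.41), KRT8 (−0.37) and KRT18 (−0.24) fell, and KRT19 did not pass, and the part of this in the results below was not tested. Of the 5 others, CDH5 rose, COL1A1 and PECAM1 fell, and the macrophage markers CD14 and CSF1R did not pass the test.

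The 42 members changed in both directions after BAP18 knockdown, with more rises than falls. Further lysosomal genes, described below, leaned the other way. Of the 42 members, 21 rose, 9 fell and 12 did not pass an adjusted p under 0.05 in edgeR's quasi-likelihood test. Over all 20776 genes tested, 24.5% rose and 25.1% fell, against 50% and 21.4% of the members. Among the 14420 of these whose mean RPKM (a length-scaled level) was at or above that of the lowest member, 28.4% rose and 29% fell. The median log2 fold change of the members was 0.19, and that of all genes was 0.00102. Fold changes were mostly small, and in such bulk RNA fewer cells of a type and less RNA per cell cannot be told apart. With an absolute log2 fold change over 1 as a further criterion, 1 member was higher (SQSTM1) and 1 was lower (ATP6V1C1), where 4.72% of all genes were higher and 3.74% lower. In 21 members the 3 siBAP18 libraries all lay above the 3 siCtrl libraries and in 9 they all lay below, against 27.6% and 29% of all genes.

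**Figure D1:**
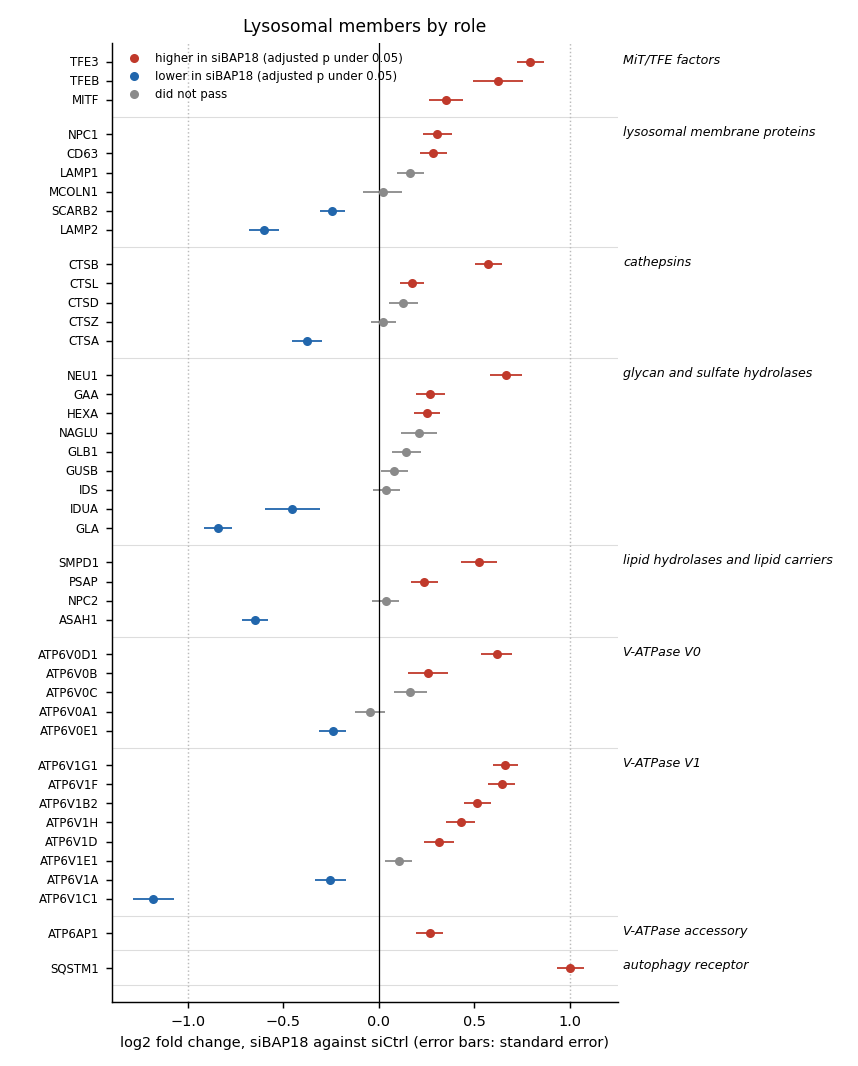
Log2 fold change of each member, siBAP18 against siCtrl, grouped by role (n = 3 libraries per group). Bars are standard errors, colors give the call at an adjusted p under 0.05, and dotted lines mark log2 fold changes of −1 and 1. SQSTM1 at 1.00 and ATP6V1C1 at −1.18 are the extremes, and every role with 4 or more members holds both rises and falls.

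The direction of the fold changes moved with GC content. Among all genes with a GC value, the median log2 fold change was −0.24 in the lowest quartile of transcript GC content and 0.12 in the highest. The 8 members in the lowest quartile had a median of −0.25, with 5 falls and 2 rises. In that quartile 41.9% of all genes fell and 10.5% rose. The 15 members in the highest had a median of 0.26, with 8 rises and 2 falls, where 34% of all genes rose and 16.8% fell. LAMP2, ASAH1 and ATP6V1C1, with a GC content of 39.9%, 42.6% and 38.3%, all fell, whereas CTSA and IDUA fell with 57.9% and 68.6%. When each library was corrected for its trend on GC content and transcript length, a setting chosen after seeing the data that also removes any biological change following GC content, 16 members rose and 8 fell, where 23.2% of all genes rose and 26.7% fell, and their median log2 fold change was 0.0858 against −0.0259 for all genes. The part of GC content in these results was not tested.

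**Figure D2:**
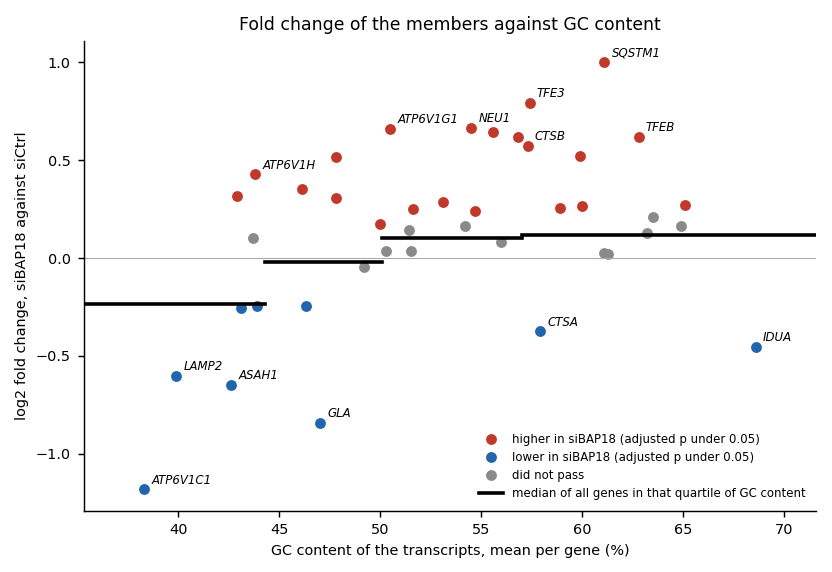
Log2 fold change of the 42 members (siBAP18 against siCtrl) against the mean GC content of their transcripts in percent. Black bars show the median of all genes in each quartile of GC content, −0.24, −0.021, 0.10 and 0.12 from low to high, and 5 of the 9 members that fell lie in the lowest quartile.

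All 3 MiT/TFE factors were higher after BAP18 knockdown. TFE3 was the most abundant of them, at 9.88 RPKM in siCtrl against 1.73 for MITF and 0.813 for TFEB. Its CPM values were 44.0, 42.5 and 40.8 in siCtrl and 77.4, 67.2 and 76.0 in siBAP18, a log2 fold change of 0.79 (SE 0.0715, adjusted p = 1.2e-09). The lowest siBAP18 library stood well above the highest siCtrl library. TFEB, the factor best known for driving lysosome formation, had the lowest siCtrl level of the 42 members per gene length (RPKM), and was measured at 4.12, 5.27 and 4.41 CPM in siCtrl and 6.03, 6.76 and 8.51 CPM in siBAP18. Its log2 fold change was 0.62 (SE 0.131, adjusted p = 0.000311), and the groups did not overlap although the siBAP18 libraries were spread. MITF, the regulator of pigment cell identity, was measured at 12.9, 12.7 and 11.8 CPM in siCtrl and at 16.4, 17.1 and 14.1 CPM in siBAP18. This gave the smallest change of the family, a log2 fold change of 0.35 (SE 0.0876, adjusted p = 0.00167), and again all siBAP18 libraries were the higher ones. Under limma on log2(RPKM + 1) without a filter, TFEB (log2 fold change 0.313, adjusted p = 0.0522) and MITF (0.231, adjusted p = 0.0973) lost their calls. Summed over the 3 genes, the level was 12.4 ± 0.504 RPKM in siCtrl and 20.6 ± 0.871 RPKM in siBAP18 (SD, n = 3), with most of it from TFE3.

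The MiT/TFE factors bind the E-box CACGTG, and best its extended palindrome TCACGTGA, so these letters were looked up in the promoters of the members, from 250 bases before to 50 bases after the gene start in RefSeq (GRCh38.p14). An entry was found for 31 of the 42 members, and not for LAMP2, CTSB, HEXA, NAGLU, ASAH1, PSAP, ATP6V0E1, ATP6V1A, ATP6V1B2, ATP6V1C1 and ATP6V1H. On either strand, CACGTG was present in 10 of the 31 promoters (32.3%), against 7.43% of all promoters and 9.95% of those of genes tested. The nested TCACGTG was present in 9 (29%), against 3.82% and 5.66%, and the TCACGTGA that contains both in 6 (19.4%), against 1.04% and 1.79%. Of 75 promoters of the further lysosomal, V-ATPase, TFEB control and autophagy genes described below, 22.7% held CACGTG, 22.7% TCACGTG and 10.7% TCACGTGA. Promoters with CACGTG belonged to 6 of 16 members that rose, 1 of 4 that fell and 3 of 11 that did not pass, and the presence of these letters is a description of sequence, not of binding. The windows below hold the sites of genes described further on and are read 5′ to 3′ on the strand of the gene, with the motif in capitals and 17 bases on either side of the outer sites. CD63 and CTSD, with 1 site each, are not shown.
LAMP1 (chr13:113297029-113297119, + strand): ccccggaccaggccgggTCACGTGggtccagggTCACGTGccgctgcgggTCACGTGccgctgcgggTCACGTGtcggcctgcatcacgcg
LAMP1 (chr13:113297193-113297261, + strand): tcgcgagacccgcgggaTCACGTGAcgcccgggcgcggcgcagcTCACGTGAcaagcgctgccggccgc
MCOLN1 (chr19:7522565-7522633, + strand): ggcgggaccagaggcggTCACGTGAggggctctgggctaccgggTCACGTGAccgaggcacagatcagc
CTSA (chr20:45891275-45891333, + strand): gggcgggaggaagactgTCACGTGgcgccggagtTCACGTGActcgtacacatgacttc
GAA (chr17:80101487-80101528, + strand): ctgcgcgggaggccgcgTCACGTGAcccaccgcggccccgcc
GAA (chr17:80101532-80101573, + strand): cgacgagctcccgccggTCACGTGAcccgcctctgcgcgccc
NEU1 (chr6:31862925-31862965, - strand): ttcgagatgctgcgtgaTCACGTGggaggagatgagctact
ATP6V0B (chr1:43974885-43974943, + strand): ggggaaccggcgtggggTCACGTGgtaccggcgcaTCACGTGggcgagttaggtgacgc
ATP6V0D1 (chr16:67481193-67481234, - strand): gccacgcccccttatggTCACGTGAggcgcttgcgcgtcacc
ATP6V1G1 (chr9:114587693-114587734, + strand): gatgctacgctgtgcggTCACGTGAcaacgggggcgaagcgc

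Of these promoters, that of LAMP1 held the most sites, 6 in all, yet LAMP1 did not pass the test. MCOLN1, with 2 palindromes, was flat, and CTSA, with 1 palindrome beside a shorter site, fell. GAA, ATP6V0D1 and ATP6V1G1, each with at least 1 palindrome, rose, as did NEU1 and ATP6V0B with the shorter form.

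Among the 6 lysosomal membrane proteins, NPC1 and CD63 rose, LAMP2 and SCARB2 fell, and LAMP1 and MCOLN1 did not pass. LAMP1 and LAMP2 are heavily glycosylated proteins that line the inner face of the membrane, and both are common markers of lysosome mass. LAMP2 was at 23.0, 22.7 and 23.2 CPM in siCtrl and at 15.8, 15.8 and 13.7 CPM in siBAP18. Its log2 fold change of −0.60 (SE 0.0786, adjusted p = 5.69e-07) was far outside the spread of either group. LAMP1 showed a log2 fold change of 0.16 (adjusted p = 0.0573), with all siBAP18 libraries above all siCtrl libraries. The test of LAMP1 passed under 11 of 20 alternative settings, and no test of the difference between LAMP1 and LAMP2 was made.

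NPC1, which carries cholesterol out of the lysosome, was at 20.5, 23.0 and 21.5 CPM in siCtrl and at 28.1, 27.0 and 25.2 CPM in siBAP18. The rise was a log2 fold change of 0.31 (SE 0.0754, adjusted p = 0.00145) without overlap of the groups. CD63, a tetraspanin of late endosomes and exosomes, was the most abundant membrane member at 170.4 RPKM in siCtrl. Its CPM values of 444, 437 and 468 in siCtrl and 541, 503 and 600.2 in siBAP18 gave a log2 fold change of 0.29 (SE 0.0713, adjusted p = 0.00166). Of the exonic length of CD63, 9% lies opposite RP11-644F5.11, which had a log2 fold change of 0.89. SCARB2, the receptor that delivers glucocerebrosidase, fell with a log2 fold change of −0.24. The calcium channel MCOLN1 was at 10.3, 8.23 and 9.28 CPM in siCtrl and at 9.74, 8.68 and 9.89 CPM in siBAP18, so that the groups overlapped fully (log2 fold change 0.02, SE 0.101, adjusted p = 0.896).

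The 5 cathepsins were abundant and moved unequally, with CTSB and CTSL higher, CTSA lower, and CTSD and CTSZ not passing. CTSB, a cysteine protease, was measured at 201, 192 and 202 CPM in siCtrl and at 297, 268 and 319 CPM in siBAP18. The groups were well apart, with a log2 fold change of 0.57 (SE 0.0704, adjusted p = 2.13e-07). CTSA, the serine carboxypeptidase that also protects NEU1 and GLB1 in a shared complex, went the other way, from 47.4, 47.8 and 49.2 CPM to 34.8, 34.1 and 42.7 CPM. The third siBAP18 library was nearer to siCtrl than the other siBAP18 libraries but still below it, and the log2 fold change was −0.38 (SE 0.0786, adjusted p = 0.000285). Of the exonic length of CTSA, 17.7% lies opposite NEURL2, 7.34% opposite RP3-337O18.9 and 3.42% opposite PLTP. These had log2 fold changes of 0.58, −0.47 and −0.15, of which only that of RP3-337O18.9 passed.

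CTSL, a further cysteine protease, had a level of 453 RPKM in siCtrl, next to the highest of the 42 members. Its CPM rose narrowly, from 1066, 1098 and 1058 to 1214, 1199 and 1217, with a log2 fold change of 0.17 (SE 0.0645, adjusted p = 0.0288), a call that was lost under 6 of 20 alternative settings. CTSZ was at 168, 159.6 and 167 CPM in siCtrl and at 176, 159 and 167 CPM in siBAP18, values that interleaved (log2 fold change 0.02, SE 0.0659, adjusted p = 0.796). The aspartic protease CTSD showed a log2 fold change of 0.13 (adjusted p = 0.175), and 41.7% of its exonic length is shared with another listed gene of the same strand, so that its count may be incomplete.

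Of the 9 glycan and sulfate hydrolases, NEU1, GAA and HEXA rose, GLA and IDUA fell, and NAGLU, GLB1, GUSB and IDS did not pass. GLA, the alpha-galactosidase that is deficient in Fabry disease, was at 52.3, 45.8 and 48.8 CPM in siCtrl and at 28.3, 25.1 and 28.6 CPM in siBAP18. No library of either group came near the other group, and the log2 fold change was −0.84 (SE 0.075, adjusted p = 9.45e-10), the deepest fall among the enzymes of the lumen in these 42 genes. The sialidase NEU1 rose from 21.7, 19.9 and 23.8 CPM to 37.5, 31.0 and 35.3 CPM. Its log2 fold change of 0.67 (SE 0.0825, adjusted p = 2.47e-07) stood beside the fall of its partner CTSA and a log2 fold change of 0.14 (adjusted p = 0.123) for GLB1, the beta-galactosidase of the same complex.

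HEXA, the alpha chain of beta-hexosaminidase, moved from 77.5, 75.0 and 76.5 CPM to 93.0, 84.2 and 95.2 CPM. This was a modest but separated rise, with a log2 fold change of 0.25 (SE 0.0676, adjusted p = 0.00329), and the call was lost under 1 of 20 alternative settings. Of its exonic length, 10.1% lies opposite RP11-106M3.3 and 4.89% is shared with RP11-106M3.2 on the same strand. These had log2 fold changes of 0.25 and 0.28, and HEXA-AS1, opposite 2.89%, had 1.78. GAA, the alpha-glucosidase that degrades lysosomal glycogen, rose with a log2 fold change of 0.27, and IDUA, which removes iduronic acid from glycosaminoglycans, fell with −0.45 from a level of 0.951 RPKM. IDUA shares 13.3% of its exonic length with SLC26A1 on the other strand, which fell too (log2 fold change −0.66). IDS, the sulfatase that acts before IDUA on the same substrates, was flat, with 34.4, 35.6 and 34.6 CPM in siCtrl against 37.8, 36.2 and 33.2 CPM in siBAP18 (log2 fold change 0.04, SE 0.0711, adjusted p = 0.691). NAGLU and GUSB had log2 fold changes of 0.21 (adjusted p = 0.0651) and 0.08 (adjusted p = 0.357).

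The 4 genes of lipid breakdown split as SMPD1 and PSAP higher, ASAH1 lower and NPC2 flat. ASAH1, acid ceramidase, was at 47.5, 47.9 and 47.6 CPM in siCtrl and at 29.8, 32.2 and 29.1 CPM in siBAP18. The siCtrl libraries were nearly equal, and the log2 fold change was −0.65 (SE 0.0694, adjusted p = 2.22e-08). SMPD1, acid sphingomyelinase, which makes the ceramide that ASAH1 cleaves, rose from 12.3, 13.0 and 13.1 CPM to 16.5, 17.3 and 21.6 CPM, a log2 fold change of 0.52 (SE 0.0932, adjusted p = 4.46e-05). These neighbours in sphingolipid breakdown therefore changed in opposite directions, each without overlap of the groups.

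PSAP, the precursor of the saposins that present sphingolipids to their hydrolases, was at 966, 878 and 959 CPM in siCtrl and at 1109.8, 1030.4 and 1167 CPM in siBAP18. Its log2 fold change was 0.24 (SE 0.0696, adjusted p = 0.00601), and the call was lost without siCtrl replicate 2 and under the correction for GC content. NPC2, the soluble cholesterol carrier that hands its load to NPC1, was at 26.5, 25.5 and 26.8 CPM in siCtrl and at 27.3, 25.5 and 28.1 CPM in siBAP18 (log2 fold change 0.03, SE 0.0719, adjusted p = 0.719). Its groups overlapped, unlike those of NPC1.

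**Figure D3:**
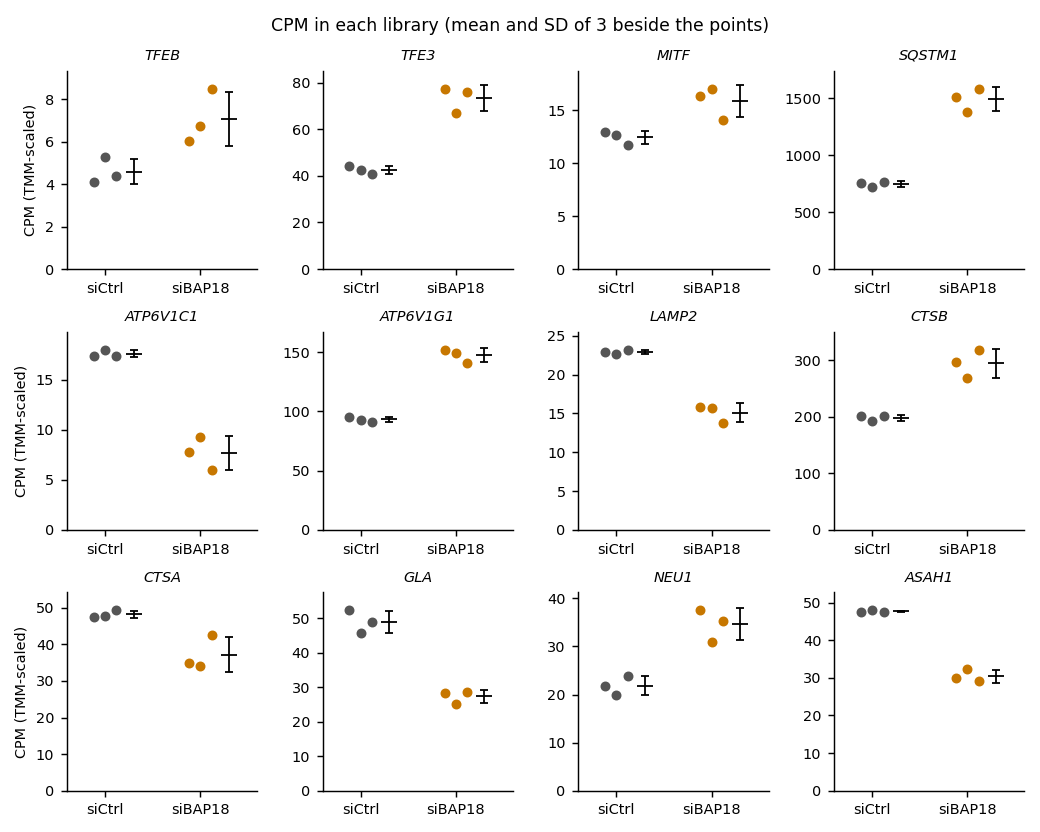
CPM (TMM-scaled) of 12 members in each of the 3 siCtrl and 3 siBAP18 libraries, each panel with its own axis from 0, and the mean ± SD beside the points. In all 12 panels the groups do not overlap, with ATP6V1C1, LAMP2, CTSA, GLA and ASAH1 lower and the other 7 genes higher in siBAP18.

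In V-ATPase, 8 of the 14 members rose (57.1%) and 3 fell (21.4%), against 24.5% and 25.1% of all genes. Of 8 further V-ATPase genes tested, described below, 1 rose and 3 fell. The 8 subunits of V1 had a median log2 fold change of 0.37, with 5 rises and 2 falls. ATP6V1G1, part of the peripheral stalk, rose from 95.4, 93.1 and 91.4 CPM to 152, 149 and 141 CPM (log2 fold change 0.66, SE 0.0653, adjusted p = 5.9e-09). ATP6V1F, a subunit of the central rotor, had the highest siCtrl level of the 42 members per gene length (RPKM) and rose from 382, 373 and 349 CPM to 568, 535 and 619.6 CPM (log2 fold change 0.64, SE 0.0702, adjusted p = 3.22e-08). Both genes were clear of the siCtrl range in every library. Of the exonic length of ATP6V1F, 23.7% lies opposite KCP, which also had a log2 fold change of 0.64, and whether the counting used the strand is not given in the sources used here.

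ATP6V1C1, the C subunit, which holds the peripheral stalks to V0 when the pump assembles, was at 17.4, 18.0 and 17.4 CPM in siCtrl and at 7.83, 9.28 and 5.97 CPM in siBAP18. It was the strongest fall among the members, with a log2 fold change of −1.18 (SE 0.109, adjusted p = 1.65e-09), while its isoform ATP6V1C2, at 12.0 RPKM in siCtrl against 3.00 RPKM for ATP6V1C1, showed a log2 fold change of 0.05 (adjusted p = 0.619). The nucleotide-binding subunits of the ATPase ring diverged, with ATP6V1B2 higher (log2 fold change 0.52) and ATP6V1A lower (−0.25), although the call of ATP6V1A was lost under 5 of 20 alternative settings and the difference between the subunits was not tested. ATP6V1H and ATP6V1D, a regulatory subunit and a rotor subunit, rose with log2 fold changes of 0.43 and 0.31. ATP6V1E1, the partner of the G subunit in the stalk, was at 66.0, 64.5 and 61.1 CPM in siCtrl and at 73.9, 64.5 and 67.5 CPM in siBAP18, which overlapped (log2 fold change 0.10, SE 0.0698, adjusted p = 0.229).

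In the V0 sector, ATP6V0D1 and ATP6V0B rose, ATP6V0E1 fell, and ATP6V0C and ATP6V0A1 did not pass. ATP6V0D1, which couples the rotor to the membrane ring, was at 15.1, 13.6 and 13.3 CPM in siCtrl and at 22.1, 20.1 and 22.5 CPM in siBAP18 (log2 fold change 0.62, SE 0.0813, adjusted p = 6.35e-07). The rise was larger than the spread of either group. ATP6V0E1, a small membrane subunit, fell from 32.7, 32.9 and 33.6 CPM to 28.2, 26.6 and 29.01 CPM (log2 fold change −0.24, SE 0.0701, adjusted p = 0.00543). ATP6V0B, of the proteolipid ring, was at 8.50, 6.94 and 7.72 CPM in siCtrl and at 9.89, 8.24 and 9.67 CPM in siBAP18, and although it passed (log2 fold change 0.26, SE 0.105, adjusted p = 0.0441), its groups overlapped and the call was lost under 10 of 20 alternative settings.

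ATP6V0C, the other ring subunit, showed a log2 fold change of 0.16 (adjusted p = 0.113), and 57.5% of its exonic length is shared with another listed gene of the same strand. ATP6V0A1, which forms the proton channel with the ring, was at 38.6, 41.6 and 36.8 CPM in siCtrl and at 34.99, 36.6 and 41.8 CPM in siBAP18, with no separation (log2 fold change −0.05, SE 0.0766, adjusted p = 0.644). The accessory protein ATP6AP1, which takes part in the assembly of V0, rose from 36.4, 35.8 and 33.3 CPM to 42.1, 39.7 and 45.1 CPM (log2 fold change 0.27, SE 0.0719, adjusted p = 0.00331). All siBAP18 libraries were above siCtrl for this gene.

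SQSTM1, also called p62, binds ubiquitinated cargo and LC3 proteins and is itself degraded in lysosomes. It showed the strongest rise of the 42 genes, from 753, 719 and 765 CPM to 1513, 1379.7 and 1584 CPM, a log2 fold change of 1.00 (SE 0.0698, adjusted p = 1.18e-11). The value lies at the limit of a log2 fold change of 1, and it fell under it in 8 alternative settings while the adjusted p stayed under 0.05 in all 20. C5orf45, which lies opposite 20.7% of its exonic length, had a log2 fold change of 0.80.

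Per length, the level of the members spanned 0.813 RPKM (TFEB) to 465 RPKM (ATP6V1F) in siCtrl. Their summed level was 1941 ± 21.9 RPKM in siCtrl and 2521 ± 50.1 RPKM in siBAP18 (SD, n = 3), or 0.515% to 0.522% and 0.662% to 0.689% of all counts. ATP6V1F alone made 45.2% of the difference and SQSTM1 a further 16.9%, so the sum says little of the other members. Pseudogenes are annotated for 8 members, up to 10 for GUSB and 5 each for CTSL and ATP6V1G1, and the sources used here do not say how reads shared with them were counted. The summed cathepsins went from 618.1 ± 10.3 to 694.5 ± 12.6 RPKM, and the V1 subunits from 577.8 ± 26.2 to 885.9 ± 18.7 RPKM. CTSL made 59 RPKM of the cathepsin difference and ATP6V1F 262 RPKM of the V1 difference, while CTSA, ATP6V1A and ATP6V1C1 fell. The glycan hydrolases, where the fall of GLA weighed most, were at 65.9 ± 1.59 and 62.8 ± 2.26 RPKM. Mitochondrial genes took 6.86% to 7.43% of the counts in siCtrl and 5.27% to 6.14% in siBAP18. With these genes left out 21 members rose and 9 fell, as before, where 24.6% of all genes rose and 25% fell. Between siBAP18 libraries, replicate 2 was the lowest of the 3 in 13 of the 21 members that rose. Without it 26 members rose and 9 fell, where 24.8% of all genes rose and 25.4% fell.

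**Figure D4:**
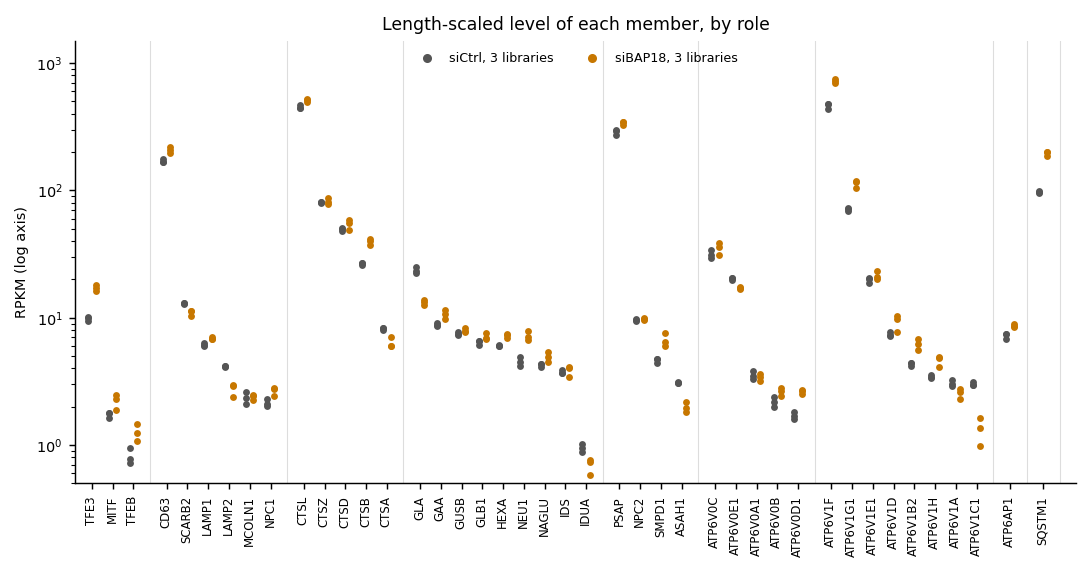
RPKM of each member in the 3 siCtrl and 3 siBAP18 libraries on a log axis, grouped by role in the order MiT/TFE factors, membrane proteins, cathepsins, glycan hydrolases, lipid genes, V0, V1, ATP6AP1 and SQSTM1, and ordered by level within each group. Levels run from under 1 RPKM for TFEB and IDUA to 453 and 465 RPKM for CTSL and ATP6V1F in siCtrl, and the shift between groups is small beside that range.

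Among other lysosomal genes falls outnumbered rises. Of 43 further enzymes, membrane proteins and sorting factors, 11 rose (25.6%) and 18 fell (41.9%), against 24.5% and 25.1% of all genes, with a median log2 fold change of −0.12. Leaving out replicate 2 or replicate 3 of siCtrl brought the number of rises to 7, where 20.7% and 21% of all genes rose. TPP1, the tripeptidyl peptidase deficient in a form of neuronal ceroid lipofuscinosis, dropped from 38.5, 39.8 and 34.6 CPM to 9.37, 9.64 and 10.0 CPM (log2 fold change −1.96, SE 0.08, adjusted p = 4.4e-16). This fall was deeper than that of any of the 42 members. LIPA, the acid lipase, and GNPTAB, which builds the mannose 6-phosphate tag, fell with log2 fold changes of −1.38 and −1.28. CD68, a LAMP-like glycoprotein often used to mark macrophages, rose from 66.2 ± 3.47 to 136 ± 21.8 CPM (SD, n = 3), a log2 fold change of 1.04, while CD14 and CSF1R stayed at or under 0.691 RPKM in every library. Of 8 further V-ATPase genes tested, ATP6V1E2 rose (0.53), and TCIRG1 (−0.53), ATP6V1G2 (−0.56) and ATP6AP2 (−0.23) fell. ATP6V0A4, ATP6V0D2 and ATP6V1G3 had too few counts to be tested.

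The genes that control TFEB at the lysosome were mostly of the Rag GTPase and mTORC1 machinery. Of 21 tested, 9 rose (42.9%) and 4 fell (19%), against 24.5% and 25.1% of all genes. Their median log2 fold change was 0.16. RRAGD, a Rag GTPase, rose from 4.96, 5.12 and 4.19 CPM to 12.2, 13.3 and 9.97 CPM (log2 fold change 1.32, SE 0.115, adjusted p = 6.6e-10). FLCN and FNIP1, which form the complex that acts on RagC and RagD, rose too, with log2 fold changes of 1.06 and 0.79. FNIP2, the other partner of FLCN, named here after its value was seen, fell (log2 fold change −0.57, adjusted p = 0.00456). MTOR itself fell, from 55.4, 54.5 and 55.8 CPM to 31.3, 38.4 and 36.1 CPM (log2 fold change −0.65, SE 0.0749, adjusted p = 8.37e-08). Of the 23 autophagy genes, 14 rose (60.9%) and 3 fell (13%), with a median log2 fold change of 0.34. The rises were led by GABARAPL1 (0.70), MAP1LC3B (0.68), VPS11 (0.62) and OPTN (0.56). GABARAPL1 and MAP1LC3B encode proteins conjugated to the autophagosome membrane. OPTN encodes a cargo receptor and VPS11 a subunit of the tethers that fuse the autophagosome with the lysosome. The lists share no gene with the members, and no test of a list as a whole was run.

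**Figure D5:**
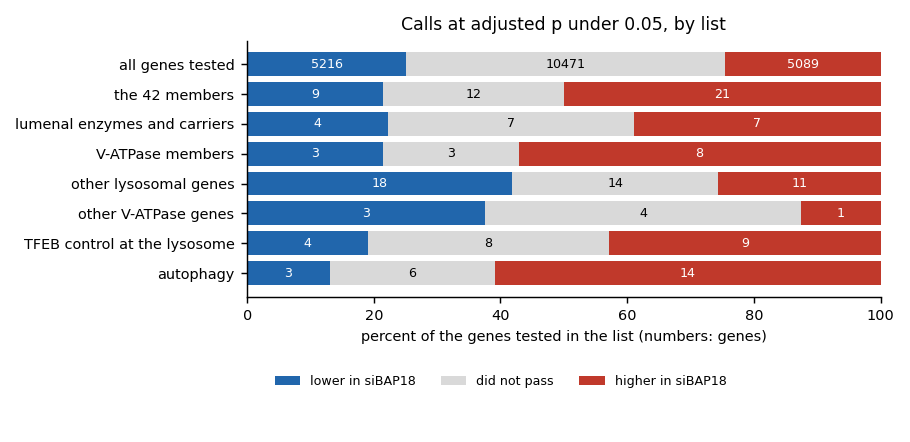
Percent of tested genes that were lower, did not pass or were higher in siBAP18 at an adjusted p under 0.05, for all genes, the 42 members and the further lists, with gene numbers in the bars. The members (21 higher, 9 lower) and the autophagy genes (14 higher, 3 lower) lean to higher, and the other lysosomal genes (11 higher, 18 lower) to lower.

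Because siRNAs can act through short matches in 3′ UTRs, the letters that pair with guide bases 2 to 8 of each siRNA named in the study were looked up in the 3′ UTRs of the members in GENCODE 29. The word ACTCAAC of siBAP18#3 occurred in 1 member, ATP6V1C1, whose log2 fold change was −1.18. The word AAGATTC of siBAP18#2 occurred in LAMP2, ATP6V0E1 and ATP6V1D, at −0.60, −0.24 and 0.31. The word AATCACA of siBAP18#1 occurred in SCARB2, IDS and ASAH1, at −0.24, 0.04 and −0.65, and TGTCACG of siCtrl in none. Of the 42 members, 1, 3, 3 and 0 thus held the words of siBAP18#3, siBAP18#2, siBAP18#1 and siCtrl. Among 13800 genes with a 3′ UTR, 7.48%, 12.2%, 15.1% and 3.26% held them. Over all genes with a 3′ UTR, the median log2 fold change with and without the word was −0.254 and 0.00546 for siBAP18#3, −0.136 and 0.00941 for siBAP18#1, −0.134 and 0.00455 for siBAP18#2, and 0.00985 and −0.0128 for siCtrl. A longer 3′ UTR has more room for any word, and the word sets were not matched for length or GC content. The part of these matches in the falls of ATP6V1C1, LAMP2, ASAH1, SCARB2 and ATP6V0E1 was not tested.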

How the data were processed

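Poly(A) RNA of 6 A549 cultures, 3 per group, was sequenced by the authors as dUTP libraries. The authors deposited counts per gene, whole numbers without normalization, and RPKM values, which equal those counts scaled by the listed gene length and the library total. The labels name hg38 beside the mouse build GRCm38, and the spans of 40 members equal those of GENCODE 29 on GRCh38. The aligner, the counting program and the use of strand are not given in the sources used here. The members and lists were chosen with earlier results of these data known.

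The test was run with edgeR 4.0.16 in R 4.3.3 (filterByExpr, TMM, quasi-likelihood test, Benjamini-Hochberg adjustment over 20776 genes). SE was obtained from each fitted log2 fold change and its F statistic, as their ratio on the square-root scale of F. A gene with 0 counts may hide up to 3 counts of its library, a floor that covers counting error only. Named genes were the MiT/TFE factors, members past both thresholds, in each role the 3 with the smallest and the 1 with the largest adjusted p, and up to 4 with the smallest adjusted p of each further list. Other genes are given by log2 fold change. Chi-square values per degree of freedom between replicate libraries were 4.13 to 4.79 in siCtrl and 11.1 to 25.7 in siBAP18, so none was a copy. The siBAP18 libraries thus differed more among themselves, most of all replicates 2 and 3. The steps were run on simulated counts in which few genes changed, by larger folds than in most members. Smaller or widespread changes were not covered.

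Alternatives were DESeq2 1.42.0 size factors and Wald test, upper-quartile and total-count scaling, edgeR's likelihood ratio test, no expression filter, a minimum of 10 counts per library, limma 3.58.1 on log2(RPKM + 1) for genes over a mean RPKM of 0.5 or for all genes, the same with a pseudocount of 0.1, a replicate block and each library left out. Leaving out mitochondrial genes, protein-coding genes only, and offsets for GC content and length were added after seeing the data. GC content was available for 98.3% of genes tested. Sequence searches used Python 3.11.15, numpy 2.4.6 and pandas 2.3.3, and plots matplotlib 3.10.9. PTPRC, CD3E and DCN were not analysed here, and 1 further marker is not reported here.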

Additional observations from a re-analysis of the deposited data

How the results depend on the processing

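Across 20 alternative settings, 16 to 26 members rose, 7 to 9 fell, and the median log2 fold change of the members lay between 0.0858 and 0.261, positive in each. The share of all genes that rose ran from 11.7% to 28.7%, and the share that fell from 10.3% to 30.1%. Both were lowest under limma on log2(RPKM + 1) without a filter and highest with protein-coding genes only. The number past the fold limit went from 1 to 0 for the rises without a filter, under limma on log2(RPKM + 1) with and without a filter and with the replicate block, and from 1 to 0 for the falls under both limma settings. With offsets for GC content and length, chosen after seeing the data, both numbers were 0 and the median was 0.0858. Without 1 library each, 18 to 26 members rose and 8 to 9 fell, where 20.7% to 24.8% of all genes rose and 21.3% to 25.4% fell. In these settings 0 to 1 member rose past the fold limit, and the median lay between 0.144 and 0.261. The number past the limit was 0 without siCtrl replicate 2, siBAP18 replicate 1 or siBAP18 replicate 3. With the replicate block, 24 members rose and 9 fell, where 25.5% of all genes rose and 26.5% fell. The numbers mark no pairing (Pearson r across genes of same-numbered libraries' deviations from the group means −0.0166, 0.0506 and 0.00379), and LAMP1, NAGLU and ATP6V0C passed under the block. Of the other lysosomal genes, 11 rose as reported, but 5 under limma on log2(RPKM + 1) without a filter and 7 without siCtrl replicate 2, without siCtrl replicate 3 and under the GC and length offsets. In that order, 11.7%, 20.7%, 21% and 23.2% of all genes rose.

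Besides the losses given above, the calls of NPC1, GAA, HEXA, IDUA, ATP6V1D and ATP6AP1 were each lost under 1 of 20 settings. Signs turned only in members that did not pass the main test. With 1 library left out, the log2 fold change of MCOLN1 ranged from −0.0637 (without siCtrl replicate 2) to 0.0997, that of CTSZ from −0.0144 (without siBAP18 replicate 1) to 0.0591, that of IDS from −0.00473 (without siBAP18 replicate 1) to 0.0896 and that of ATP6V0A1 from −0.121 to 0.00642 (without siBAP18 replicate 1). Under the GC and length offsets, log2 fold changes were −0.108 for MCOLN1, −0.106 for CTSZ, −0.0311 for CTSD, −0.0386 for GUSB, −0.0818 for IDS and −0.0514 for NPC2. The cause was not tested.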
